A study of Mus musculus with 19 samples.

Results

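The genes described here encode steroid hormone receptors, the enzymes that make dihydrotestosterone, and genes known to respond to these receptors, 9 of the 24343 gene symbols in the deposited tables. The receptors are Esr1 and Esr2 (estrogen), Pgr (progesterone) and Nr3c1 (glucocorticoid). Srd5a1 and Srd5a2 are the type 1 and type 2 steroid 5-alpha reductases. Fkbp5, Tmprss2 and Zbtb16 are target genes of androgen or glucocorticoid receptors. The set was defined by gene name, and its members were chosen with earlier results of these data known.

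RNA sequencing was performed on stromal, basal and luminal cells that had been isolated by flow sorting from the anterior lobe of the mouse prostate. The treated animals were Lgr5-DTR-eGFP mice given diphtheria toxin. In these mice a diphtheria toxin receptor and a green fluorescent protein stand at the Lgr5 locus, so the toxin kills cells that express Lgr5, and the design asks what changes in each population once those cells are removed. The control animals were wild type, and the C57BL/6 mice of the study were bought from Charles River. Neither toxin treatment of the wild type animals, nor the age or hormonal state of any animal, is given in the sources used here. The Lgr5-DTR mice gave 4 stromal, 3 basal and 3 luminal libraries, and the wild type mice gave 3 of each, so that 19 libraries in 6 groups were compared. Whether each library of a group is a separate animal is not stated, and the p-values below reflect the spread among libraries, which may be technical.

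Steroid hormones enter cells and bind receptors of the nuclear receptor family, which HSP90-based chaperones hold ready for the hormone and which then act as transcription factors. In the prostate, testosterone is converted by 5-alpha reductases to dihydrotestosterone, a stronger androgen. Androgens act both on luminal cells, which secrete the prostatic fluid, and on the stroma, which in turn supports the epithelium. Estrogen receptor alpha (Esr1), estrogen receptor beta (Esr2) and the progesterone receptor (Pgr) have each been described in the prostate, and Pgr is a classical estrogen-induced gene in the uterus and breast.

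The libraries held 5.26 to 9.38 gigabases on annotated transcripts (median 7.73). The basal keratin Krt5 set the basal libraries apart. Krt5 averaged 436 ± 22.8 FPKM in Lgr5-DTR basal and 347 ± 37.6 FPKM in wild type basal libraries and was at most 9.77 FPKM in any other library. FPKM is a transcript level scaled to transcript length and to sequencing depth, so levels of different genes can be set side by side. Pdgfra, a fibroblast gene, was at least 35.1 FPKM in every stromal library and at most 0.363 FPKM elsewhere. The luminal keratin Krt8 was 1313 to 1674 FPKM in Lgr5-DTR basal and 1125 to 1559 FPKM in wild type basal libraries. It was 1472 to 3814 FPKM in Lgr5-DTR luminal and 1210 to 2518 FPKM in wild type luminal libraries. Krt8 therefore did not set luminal libraries apart from basal ones. Lgr5 itself averaged 0.916 ± 0.338 FPKM in Lgr5-DTR stroma and 44.2 ± 29.0 FPKM in wild type stroma (SD, n = 4 and 3). In bulk libraries such as these, fewer cells of a type and less RNA per cell cannot be told apart.

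The sequences just upstream of 4 genes are shown, those of the reductases because stroma and basal cells divided them. Those of Tmprss2 and Pgr are shown because each passed a limma test of whether its genotype difference differed between populations. For Pgr that call was narrow (adjusted p = 0.0444) and was lost in 15 of 22 alternatives. All 4 sequences are from RefSeq on GRCm38.p6 and run 5′ to 3′ on the strand of the gene. They end 1 base before the gene's start in RefSeq or in the deposited tables, whichever lies further upstream. For Srd5a1 that is the RefSeq start, upstream of the deposited one at 69611463, and for the other 3 genes the deposited start follows directly. Capitals mark 3 core promoter words on either strand, the TATA word TATAA, the CAAT word CCAAT and the GC word GGGCGG, chosen after the sequences had been read.
Srd5a2, chr17:74047917-74048110, minus strand: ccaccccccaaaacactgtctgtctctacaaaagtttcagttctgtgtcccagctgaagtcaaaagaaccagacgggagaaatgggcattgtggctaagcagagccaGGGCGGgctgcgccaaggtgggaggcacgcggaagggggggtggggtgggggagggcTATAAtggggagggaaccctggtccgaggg
Srd5a1, chr13:69611486-69611713, minus strand: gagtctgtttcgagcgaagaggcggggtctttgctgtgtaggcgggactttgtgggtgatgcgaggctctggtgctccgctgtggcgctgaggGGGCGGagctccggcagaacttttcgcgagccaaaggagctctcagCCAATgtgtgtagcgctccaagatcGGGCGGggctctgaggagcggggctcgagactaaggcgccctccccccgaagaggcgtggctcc
Tmprss2, chr16:97611196-97611445, minus strand: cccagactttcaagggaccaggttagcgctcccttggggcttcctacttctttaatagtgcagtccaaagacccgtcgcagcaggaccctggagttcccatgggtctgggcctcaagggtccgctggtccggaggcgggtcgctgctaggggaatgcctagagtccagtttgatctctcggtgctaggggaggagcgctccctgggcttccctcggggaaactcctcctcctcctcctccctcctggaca
Pgr, chr9:8899583-8899832, plus strand: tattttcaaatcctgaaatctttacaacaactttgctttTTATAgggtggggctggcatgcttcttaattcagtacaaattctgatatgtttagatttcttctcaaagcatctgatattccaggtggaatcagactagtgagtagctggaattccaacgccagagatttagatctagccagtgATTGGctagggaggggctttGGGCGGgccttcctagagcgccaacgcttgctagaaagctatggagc

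The Srd5a2 stretch of 194 bases held 1 TATA word, 1 GC word and 6 CpG, whereas the Srd5a1 stretch of 228 bases held no TATA word, 1 CAAT word, 2 GC words and 19 CpG. Of 32851 mouse promoters trimmed to the same length, 41.18% held at least as many CpG as Srd5a2 and 15.71% at least as many as Srd5a1. The trimming took off the bases nearest the start of each promoter, so these windows lie further upstream of their starts than the printed stretches. The Tmprss2 stretch of 250 bases held 10 CpG and none of the words in capitals, and the Pgr stretch of 250 bases held 4 CpG and 1 of each word. At 250 bases, the TATA word was present on 1 strand or the other in 22.78% of promoters, the CAAT word in 33.85% and the GC word in 32.74%. Searched on both strands, AGAACA, the half-site of androgen, glucocorticoid and progesterone receptor elements, and AGGTCA, the half-site of estrogen receptor elements, were in none of the 4 stretches. Of all promoters of 250 bases, 16.08% held AGAACA and 14.02% held AGGTCA. The letters are a description of these windows only.

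The 9 genes were expressed at very different levels (plot of the members by library). Srd5a2 in stroma and Tmprss2 in luminal cells were the only members with a group mean above 15 FPKM apart from Tmprss2 in Lgr5-DTR basal cells. Esr1, Nr3c1 and Fkbp5 were between 1 and 20 FPKM in every library. Esr2 did not reach 1 FPKM in any library.

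**Figure D1:**
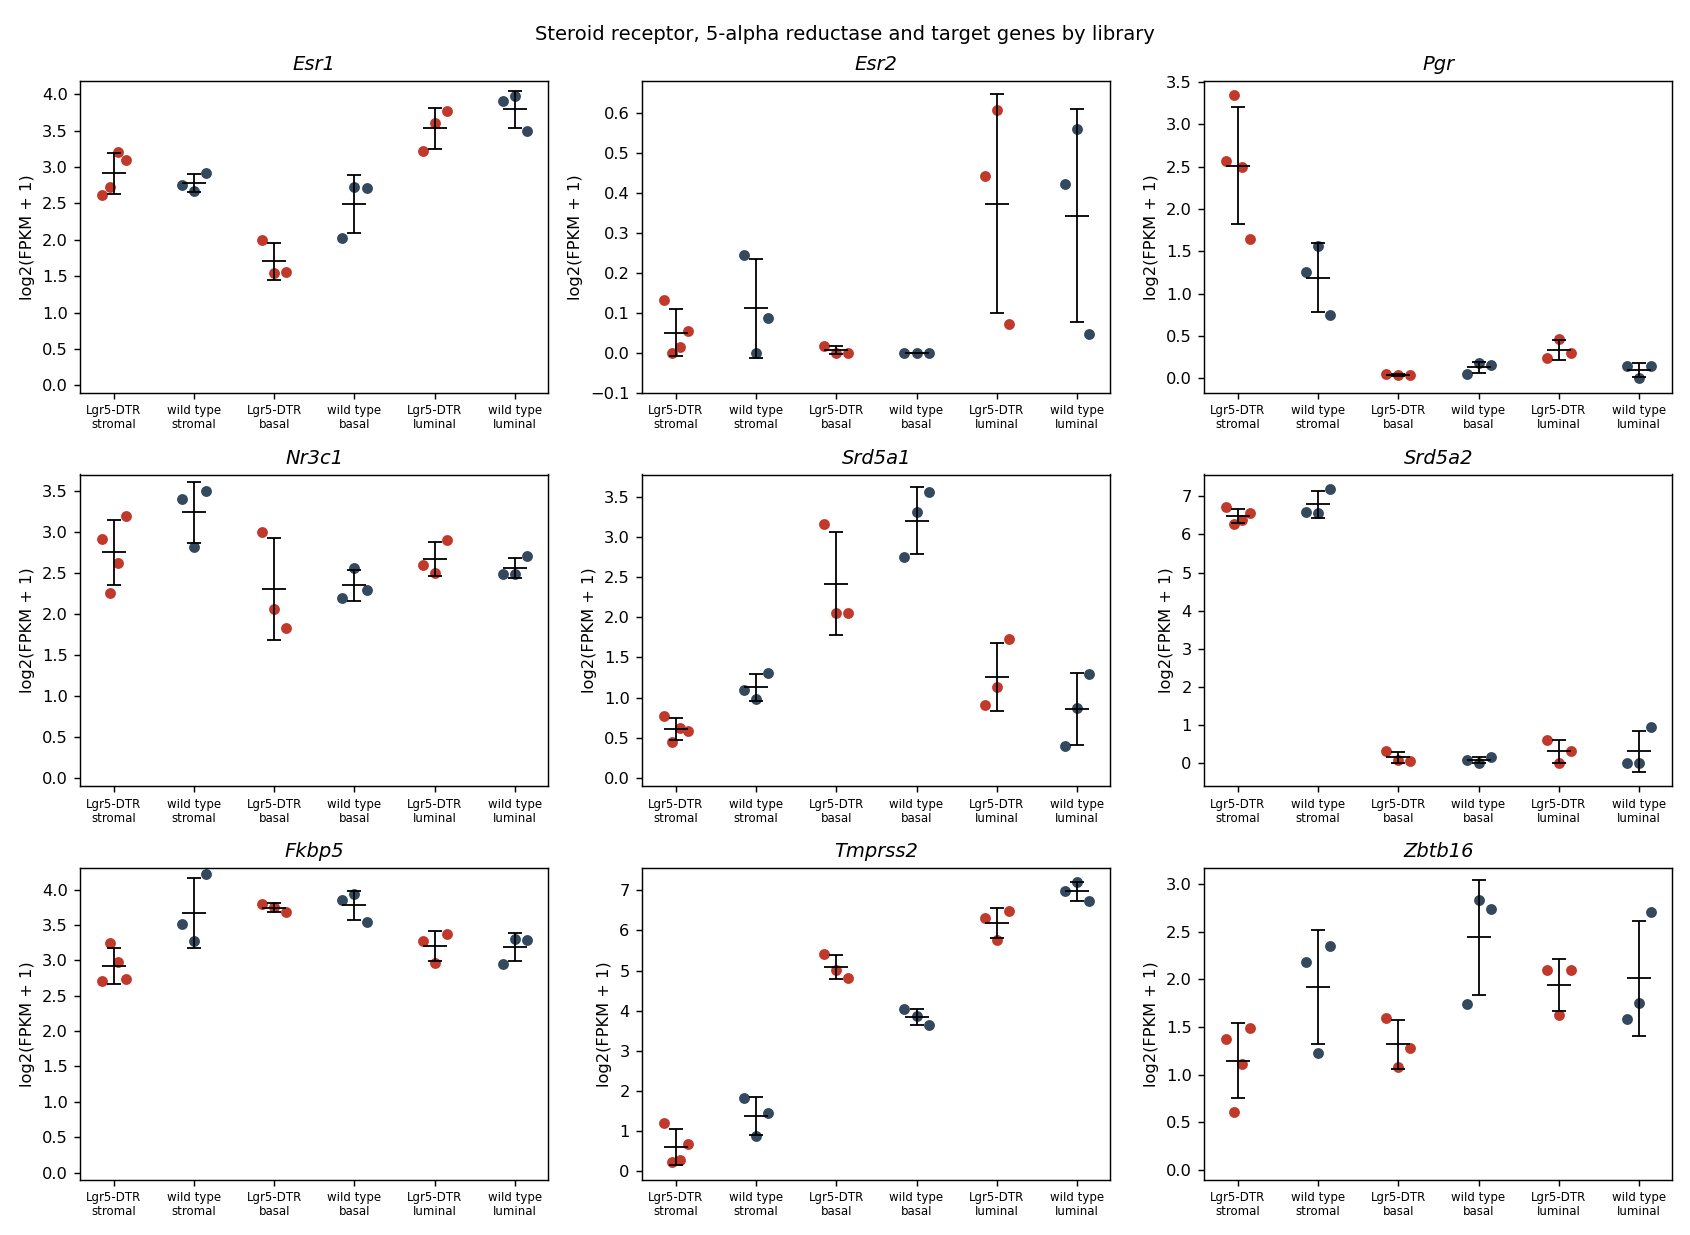
Level of each of the 9 genes in every library, in FPKM on a log2(FPKM + 1) axis, by population, with Lgr5-DTR (red) left of wild type (dark) and bars at the mean ± SD. Srd5a2 stands at 76.6 to 146 FPKM in all 7 stromal libraries and below 1 FPKM elsewhere, while Tmprss2 forms 4 separate levels in the 4 epithelial groups, highest in wild type luminal and lowest in wild type basal libraries.

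Srd5a2, the high-affinity reductase of the prostate, was read at 104, 76.6, 81.8 and 94.2 FPKM in the Lgr5-DTR stromal libraries and at 95.6, 94.1 and 146 FPKM in the wild type stromal libraries. It was at most 0.523 FPKM in Lgr5-DTR epithelial libraries and at most 0.919 FPKM in wild type epithelial libraries, and was listed at 0 in 4 of these 12. Stroma and epithelium therefore did not overlap in either genotype, whereas the genotypes overlapped within stroma. Its mean exceeded that of 93.4% of the genes at 1 FPKM or more in Lgr5-DTR stroma and of 94.7% of those in wild type stroma. In a limma model of all 19 libraries, stroma exceeded basal cells by 6.33 ± 0.23 (adjusted p = 2.34e-14) in Lgr5-DTR mice and by 6.71 ± 0.25 (adjusted p = 3.1e-14) in wild type mice. Every difference given here is a log2 difference with its SE on the log2(FPKM + 1) scale, and adjusted p-values are Benjamini-Hochberg values over all genes tested. Against luminal cells the stromal excess was 6.17 ± 0.23 (adjusted p = 5.25e-14) in Lgr5-DTR and 6.48 ± 0.25 (adjusted p = 5.29e-14) in wild type mice. These calls held under every alternative processing tried. Genes were tested only if at least 3 libraries reached 1 FPKM, and for Srd5a2 only stromal libraries did so. The p-values are therefore no separate support for its stromal excess. Its size depends on the processing, from 4.50 to 9.51 over the alternatives for wild type stroma minus basal cells.

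Srd5a1, the type 1 enzyme, was highest in basal cells and low in both stroma and luminal cells. Its basal levels were 7.91, 3.15 and 3.14 FPKM in Lgr5-DTR libraries and 5.70, 8.87 and 10.7 FPKM in wild type libraries. In stroma it was 0.708, 0.361, 0.546 and 0.501 FPKM in Lgr5-DTR libraries and 1.13, 0.97 and 1.48 FPKM in wild type libraries, and luminal libraries lay between 0.318 and 2.32 FPKM. Every basal library was above every other library, and the Lgr5-DTR stromal libraries were all below the wild type ones. Stroma was below basal cells, with a difference of -1.81 ± 0.28 (adjusted p = 1.85e-05) in Lgr5-DTR and -2.07 ± 0.30 (adjusted p = 9.37e-06) in wild type mice. Luminal cells were also below basal cells, with a difference of -1.16 ± 0.30 (adjusted p = 0.00315) in Lgr5-DTR and -2.34 ± 0.30 (adjusted p = 1.99e-06) in wild type mice. As a share of the summed FPKM of both reductases, Srd5a1 made up 0.469% to 0.678% in Lgr5-DTR stroma and 1.00% to 1.17% in wild type stroma, against 97.0% to 98.5% in Lgr5-DTR and 98.9% to 100% in wild type basal libraries. The stromal shares of the genotypes did not overlap. Stromal Srd5a1 stayed under the expression filter, so its genotype difference was not tested.

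**Figure D2:**
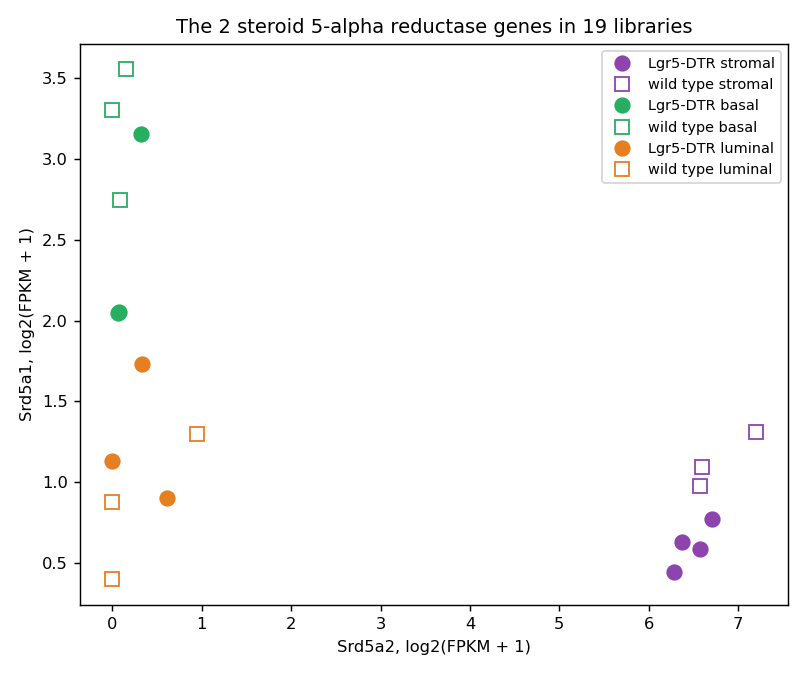
Srd5a1 against Srd5a2 in each library, in FPKM on log2(FPKM + 1) axes, with filled points for Lgr5-DTR and open squares for wild type. Stromal libraries stand apart at high Srd5a2 (76.6 FPKM or more) and basal libraries at high Srd5a1 (3.14 FPKM or more), with luminal libraries low in both.

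Between the genotypes, 3 of the 6 reductase comparisons could be tested and none passed. Srd5a2 was under the filter in basal and luminal cells, and Srd5a1 in stroma. Srd5a2 differed by -0.31 ± 0.22 in stroma (adjusted p = 0.690). Srd5a1 differed by -0.78 ± 0.33 in basal cells (adjusted p = 0.172), where Lgr5-DTR libraries 2 and 3 lay below all wild type libraries and Lgr5-DTR library 1 among them. Without Lgr5-DTR basal library 1 the difference was -1.15 (adjusted p = 0.00642). In luminal cells the Srd5a1 difference was 0.40 ± 0.31 (adjusted p = 0.469).

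Tmprss2, a membrane-anchored serine protease and a standard androgen-regulated gene of prostate epithelium, was the member with the clearest genotype difference. In basal cells it was 41.3, 31.4 and 27.2 FPKM in Lgr5-DTR libraries and 15.5, 13.7 and 11.5 FPKM in wild type libraries. All Lgr5-DTR basal libraries were above all wild type ones, and the group mean was 2.46 times higher. The difference of 1.23 ± 0.19 passed the test (adjusted p = 0.00628) and passed it under all 17 alternatives (highest adjusted p 0.0366). In luminal cells the order was turned round, with 77.6, 53.0 and 88.2 FPKM in Lgr5-DTR libraries and 125, 146 and 105 FPKM in wild type libraries. The luminal groups did not overlap either, but the difference of -0.79 ± 0.22 did not pass (adjusted p = 0.0810). Without Lgr5-DTR luminal library 3 it was -0.94 (adjusted p = 0.0314). Stromal libraries held 1.32, 0.174, 0.221 and 0.592 FPKM in Lgr5-DTR and 2.53, 0.83 and 1.76 FPKM in wild type mice, with overlap and a difference of -0.78 ± 0.31 (adjusted p = 0.355). The summed luminal markers in stroma were 116 to 406 FPKM in Lgr5-DTR and 139 to 350 FPKM in wild type libraries, and their part in the stromal values was not tested.

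The genotype difference of Tmprss2 itself differed between populations. The luminal difference was 2.02 below the basal one (-2.02 ± 0.40, adjusted p = 0.00539), and the stromal difference was 2.01 below the basal one (-2.01 ± 0.38, adjusted p = 0.00496). With a pseudocount of 0.1 the luminal value was -2.08 and did not pass (adjusted p = 0.0942). The step from basal to luminal cells was smaller in Lgr5-DTR mice, 1.10 ± 0.28 (adjusted p = 0.00280, and 0.0547 with a pseudocount of 0.1), than in wild type mice, 3.12 ± 0.28 (adjusted p = 2.04e-08).

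Markers of luminal cells moved in the same libraries. The summed level of 13 luminal markers was 6869 to 9266 FPKM in Lgr5-DTR basal libraries and 4955 to 5910 FPKM in wild type basal libraries. Of 12 tested in basal cells 5 rose and 0 fell, beside 6.5% and 4.46% of all genes. None of the 13 was at 0 in the basal libraries. The count that rose was 1 without Lgr5-DTR basal library 2 and 2 without Lgr5-DTR library 3 or wild type libraries 2 or 3, and without Lgr5-DTR library 1 it was 4, with 2 that fell. Single epithelial genes went both ways. Epcam, an epithelial adhesion gene, was 1001 ± 342 FPKM in Lgr5-DTR and 405 ± 80.6 FPKM in wild type basal libraries, which did not overlap. Krt8 was 1441 ± 202 FPKM in Lgr5-DTR and 1318 ± 221 FPKM in wild type basal libraries, which overlapped. Hoxb13, a posterior homeobox gene of prostate epithelium, was 10.4 ± 8.23 FPKM in Lgr5-DTR and 24.0 ± 8.37 FPKM in wild type basal libraries. Pbsn, an androgen-driven secretory gene outside the list, was 93.5 ± 64.3 FPKM in Lgr5-DTR and 136 ± 31.6 FPKM in wild type basal libraries. The genotypes overlapped for both Hoxb13 and Pbsn. The summed level of 12 basal markers was 7749 to 9326 FPKM in Lgr5-DTR basal libraries and 10452 to 13398 FPKM in wild type ones. Of 11 tested 1 rose and 3 fell, beside the same shares of all genes. Without single basal libraries 0 or 1 rose and 1 to 3 fell, with 0 and 1 without Lgr5-DTR library 2 or wild type libraries 2 or 3, 0 and 2 without Lgr5-DTR library 3, and 1 and 2 without wild type library 1. Krt5 had the higher level in Lgr5-DTR basal libraries, as given above, without overlap (0.33 ± 0.15, adjusted p = 0.191). Trp63, the transcription factor that defines basal cells, was 15.4 ± 3.13 FPKM in Lgr5-DTR and 37.8 ± 3.94 FPKM in wild type basal libraries (SD, n = 3 each). The part of these markers in the Tmprss2 result was not tested.

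Pgr was found in stroma. Its levels were 4.92, 9.13, 4.63 and 2.13 FPKM in Lgr5-DTR stromal libraries and 1.39, 1.95 and 0.682 FPKM in wild type stromal libraries. All 4 Lgr5-DTR libraries were above all wild type ones, the lowest of them by a narrow margin, and the ratio of the means was 3.88. The difference was 1.32 ± 0.36 and did not pass (adjusted p = 0.142). Without Lgr5-DTR stromal library 4 it was 1.61 and passed (adjusted p = 0.0194), and in the 6-group model it was 1.32 and passed (adjusted p = 0.00657). Set against the genotype difference in basal cells, the stromal difference was higher by 1.41 ± 0.39 (adjusted p = 0.0444), but this call was lost in 15 of 22 alternatives, among them the loss of any 1 stromal or basal library other than Lgr5-DTR stromal library 4 and wild type stromal library 2 (highest adjusted p 0.141, without wild type stromal library 3). Against luminal cells it was 1.09 ± 0.39 higher and did not pass (adjusted p = 0.128). Pgr was in these tests through its stromal libraries alone, since no basal or luminal library reached the filter.

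Outside stroma Pgr was at most 0.0416 FPKM in Lgr5-DTR basal and 0.130 FPKM in wild type basal libraries. In luminal cells it was 0.178, 0.386 and 0.228 FPKM in Lgr5-DTR libraries and 0.103, 0 and 0.111 FPKM in wild type libraries. The luminal groups did not overlap, but these levels were under the filter and were not tested by genotype. The stromal excess over basal cells was 2.47 ± 0.27 (adjusted p = 1.51e-07) in Lgr5-DTR and 1.06 ± 0.28 (adjusted p = 0.00380) in wild type mice. Against luminal cells it was 2.18 ± 0.27 (adjusted p = 6.8e-07) in Lgr5-DTR and 1.09 ± 0.28 (adjusted p = 0.00228) in wild type mice. Both wild type calls were lost with a pseudocount of 5. Pgr passed the filter of this model through stromal libraries alone, so these p-values are no separate support for its stromal excess.

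The stromal libraries differed in cell markers as well. The summed level of 12 fibroblast markers was 6229 to 8272 FPKM in Lgr5-DTR and 14176 to 17634 FPKM in wild type stroma. In limma 4 of the 12 fell, beside 118 of all 10689 genes tested in stroma. The number that fell was 1 without wild type library 3, 2 without Lgr5-DTR libraries 2 or 3 or wild type libraries 1 or 2, 3 without Lgr5-DTR library 1 and 6 without Lgr5-DTR library 4. Pdgfra, one of the 12, was 44.3 ± 11.2 FPKM in Lgr5-DTR and 48.9 ± 10.2 FPKM in wild type stroma. The summed level of 10 smooth muscle markers was 456 to 595 FPKM in Lgr5-DTR and 336 to 416 FPKM in wild type stroma. Of the 9 smooth muscle markers tested limma called 0, with 4 at an unadjusted p under 0.05, beside 1230 of all 10689 genes. Acta2, smooth muscle actin, was 153 ± 23.9 FPKM in Lgr5-DTR and 82.6 ± 21.5 FPKM in wild type stroma (SD, n = 4 and 3). The part of these markers in the Pgr values was not tested.

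Esr1, whose protein also induces Pgr in other tissues, was present in all 3 populations. Luminal levels were 8.32, 11.2 and 12.7 FPKM in Lgr5-DTR libraries and 14.05, 14.7 and 10.3 FPKM in wild type libraries. Stromal levels were 5.15, 5.64, 8.24 and 7.52 FPKM in Lgr5-DTR and 5.75, 5.36 and 6.57 FPKM in wild type libraries. Basal levels were 3.01, 1.93 and 1.94 FPKM in Lgr5-DTR and 3.08, 5.63 and 5.55 FPKM in wild type libraries. Luminal libraries were highest in both genotypes, and the lowest group, Lgr5-DTR basal, was separated from all others, although its library 1 nearly reached wild type library 1. Luminal cells exceeded basal cells by 1.83 ± 0.24 (adjusted p = 2.81e-06) in Lgr5-DTR and by 1.30 ± 0.24 (adjusted p = 0.000101) in wild type mice. The basal genotype difference was -0.79 ± 0.24 and did not pass (adjusted p = 0.0734). It passed without Lgr5-DTR library 1 (-0.94, adjusted p = 0.0187), without wild type library 1 (-1.02, adjusted p = 0.0295), with quantile normalization (-0.80, adjusted p = 0.0427) and in the 6-group model (-0.79, adjusted p = 0.0485). In stroma the difference was 0.13 ± 0.23 (adjusted p = 0.919), and in luminal cells it was -0.26 ± 0.22 (adjusted p = 0.497). The ratio of Pgr to Esr1 was 0.283 to 1.62 in Lgr5-DTR stroma and 0.104 to 0.364 in wild type stroma, overlapping at the lower end.

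Esr1 lies at chr10:4611989-5005633 of mm10, and its deposited transcripts began at 2 positions with a value above 0. Transcripts that began at 4611989 were above 0 in all 19 libraries and carried 53.4% to 100% of the gene's FPKM. Those that began at 4710158 were above 0 in 5 libraries, 3 from Lgr5-DTR mice (2 basal and 1 stromal) and 2 from wild type mice (1 basal and 1 stromal), at 0.255 to 1.21 FPKM. No luminal library was among them. The division of reads between transcripts of 1 gene is an estimate by Cufflinks and is uncertain at these levels.

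Esr2, the second estrogen receptor, was at most 0.521 FPKM in Lgr5-DTR libraries and at most 0.474 FPKM in wild type libraries, both in luminal cells. It was listed at 0 in all 3 wild type basal libraries and was not tested.

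Nr3c1, the glucocorticoid receptor, was the most evenly distributed receptor. Stromal levels averaged 5.91 ± 1.86 FPKM in Lgr5-DTR and 8.61 ± 2.26 FPKM in wild type mice, basal levels 4.25 ± 2.41 FPKM in Lgr5-DTR and 4.11 ± 0.687 FPKM in wild type mice, and luminal levels 5.38 ± 0.944 FPKM in Lgr5-DTR and 4.90 ± 0.532 FPKM in wild type mice. Neighbouring groups in the order of means overlapped throughout. Genotype differences were -0.49 ± 0.28 in stroma, -0.05 ± 0.30 in basal and 0.11 ± 0.21 in luminal cells (adjusted p = 0.575, 0.935 and 0.784). In Lgr5-DTR mice stroma differed from basal cells by 0.45 ± 0.26 (adjusted p = 0.152) and from luminal cells by 0.08 ± 0.26 (adjusted p = 0.794). Without Lgr5-DTR basal library 1, which held 7.01 FPKM against 3.18 and 2.55 FPKM in the other two, stroma exceeded basal cells by 0.80 (adjusted p = 0.0114). In wild type mice stroma exceeded basal cells by 0.89 ± 0.28 (adjusted p = 0.0124, lost at 0.0569 without wild type stromal library 3) and luminal cells by 0.68 ± 0.28 (adjusted p = 0.0424, lost in 7 of 17 alternatives, including without any wild type luminal library and without wild type stromal libraries 1 or 3).

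Fkbp5, a co-chaperone of steroid receptors that both androgens and glucocorticoids induce, was 5.52, 8.52, 6.86 and 5.64 FPKM in Lgr5-DTR stromal libraries and 10.4, 8.71 and 17.8 FPKM in wild type stromal libraries. The Lgr5-DTR stromal libraries were all lower, with the highest of them just under the lowest wild type one. The difference was -0.76 ± 0.27 and did not pass (adjusted p = 0.281). Basal levels averaged 12.4 ± 0.560 FPKM in Lgr5-DTR and 12.8 ± 1.89 FPKM in wild type mice, and luminal levels 8.27 ± 1.32 FPKM in Lgr5-DTR and 8.15 ± 1.21 FPKM in wild type mice (SD, n = 3 each). The genotypes overlapped in both epithelia, with a difference of -0.04 ± 0.16 in basal cells (adjusted p = 0.910) and 0.02 ± 0.21 in luminal cells (adjusted p = 0.965). Stroma was below basal cells in Lgr5-DTR mice (-0.83 ± 0.21, adjusted p = 0.00248), while in wild type mice the difference was -0.11 ± 0.23 (adjusted p = 0.723). Luminal cells were below basal cells in wild type mice (-0.60 ± 0.23, adjusted p = 0.0309, lost without wild type basal libraries 1 or 2 or wild type luminal library 1), and the difference was -0.54 ± 0.23 in Lgr5-DTR mice (adjusted p = 0.0529). The genotype difference in stroma minus that in basal cells was -0.72 ± 0.31 and did not pass (adjusted p = 0.246).

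Zbtb16, a zinc finger transcription factor that glucocorticoids, progestins and androgens induce, was 2.02, 1.12 and 1.42 FPKM in Lgr5-DTR basal libraries and 2.35, 6.14 and 5.68 FPKM in wild type basal libraries. All Lgr5-DTR basal libraries were lower, and wild type library 1 was close to them. The fall of -1.12 ± 0.30 passed narrowly (adjusted p = 0.0481) and was lost in 9 of 16 alternatives, with an adjusted p of 0.182 without Lgr5-DTR library 2, 0.126 without Lgr5-DTR library 3, 0.184 without wild type library 2 and 0.179 without wild type library 3. In stroma Zbtb16 was 1.60, 0.529, 1.16 and 1.81 FPKM in Lgr5-DTR and 3.53, 1.35 and 4.09 FPKM in wild type libraries, which overlapped and differed by -0.77 ± 0.32 (adjusted p = 0.375). Luminal levels averaged 2.88 ± 0.687 FPKM in Lgr5-DTR and 3.29 ± 1.93 FPKM in wild type mice and differed by -0.07 ± 0.32 (adjusted p = 0.910).

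Counted over the set, limma called 0 of the 7 members tested in stroma, 4 of them at an unadjusted p under 0.05, beside 1.17% of all genes. It called 2 of 6 in basal cells (Tmprss2 higher, Zbtb16 lower) beside 11% of all genes (6.5% higher, 4.46% lower), and 0 of 6 in luminal cells, 1 at an unadjusted p under 0.05, beside 3.14% of all genes. Limma without trended and robust variances gave the same counts. The basal split was 1 higher and 2 lower with quantile normalization, and 1 higher and 0 lower with upper quartile scaling. Groups did not overlap for 2 of 7 members in stroma (11.2% of all genes), 3 of 6 in basal cells (31.1%) and 1 of 6 in luminal cells (27.1%). The basal and luminal shares of all genes are high enough that separated groups alone are common there. The median difference over all genes was -0.09 in stroma, 0.02 in basal and 0.10 in luminal cells.

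**Figure D3:**
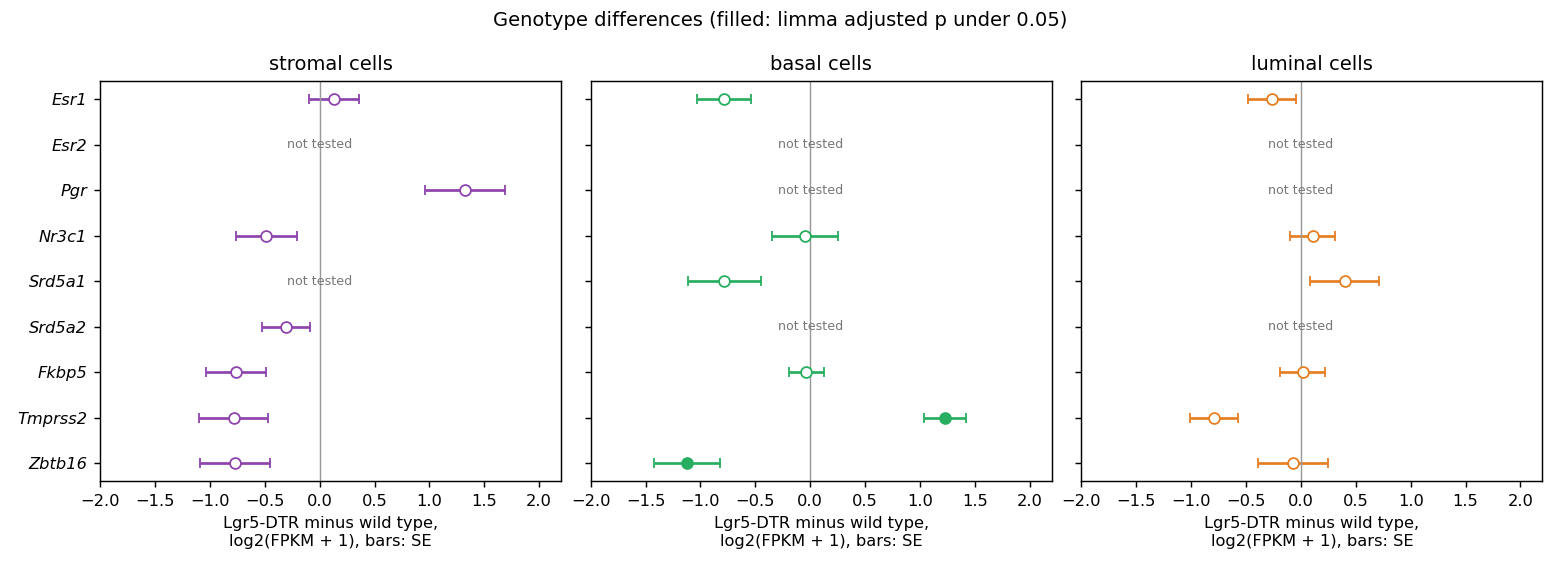
Lgr5-DTR minus wild type log2 difference of each tested member in stromal, basal and luminal cells, on the log2(FPKM + 1) scale, with bars for the SE and filled points where the adjusted p was under 0.05. The filled points are Tmprss2 (1.23) and Zbtb16 (-1.12) in basal cells, and Tmprss2 lies on opposite sides of 0 in basal and luminal cells.

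The difference between populations was far more common than that between genotypes, for the members and for all genes. Stroma against basal cells gave 6 calls of 8 members in Lgr5-DTR mice (59.4% of all genes) and 5 in wild type mice (53.6%). Stroma against luminal cells gave 6 in Lgr5-DTR mice (66.5%) and 5 in wild type mice (65.1%). Srd5a2 and Pgr, which passed the filter through stroma alone, were among the stromal calls in both genotypes. Luminal against basal cells gave 3 in Lgr5-DTR mice (51.7%) and 4 in wild type mice (58.2%). Apart from Srd5a2, the widest difference was that of Tmprss2, which was lower in stroma than in luminal cells, at -5.58 ± 0.26 in Lgr5-DTR and -5.59 ± 0.28 in wild type mice (adjusted p = 1.13e-12 and 2.19e-12). Against basal cells the stromal difference was -4.48 ± 0.26 in Lgr5-DTR and -2.47 ± 0.28 in wild type mice (adjusted p = 2.00e-11 and 3.74e-07). Of the 6 Lgr5-DTR calls between stroma and luminal cells, 2 were higher and 4 lower, beside 21.8% and 44.8% of all genes, whereas with quantile normalization or upper quartile scaling 2 were higher and 1 lower. The calls lost were Esr1 (-0.62 ± 0.22, adjusted p = 0.0185), Srd5a1 (-0.65 ± 0.28, adjusted p = 0.04998) and Zbtb16 (-0.79 ± 0.33, adjusted p = 0.0390). The median over all genes in that comparison was -0.41 as deposited and -0.05 after upper quartile scaling. Without Lgr5-DTR luminal library 3 the same 3 genes did not pass (adjusted p = 0.0900, 0.252 and 0.106). Esr1 was also lost without Lgr5-DTR luminal library 2 or stromal library 1, Zbtb16 without Lgr5-DTR luminal library 1 or stromal libraries 2 or 3, and Srd5a1 without any Lgr5-DTR stromal library or luminal library 2. The luminal against basal calls in Lgr5-DTR mice were 2 higher and 1 lower, beside 36.3% and 15.5% of all genes, and 2 of each under both scalings, where Fkbp5 also passed.

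**Figure D4:**
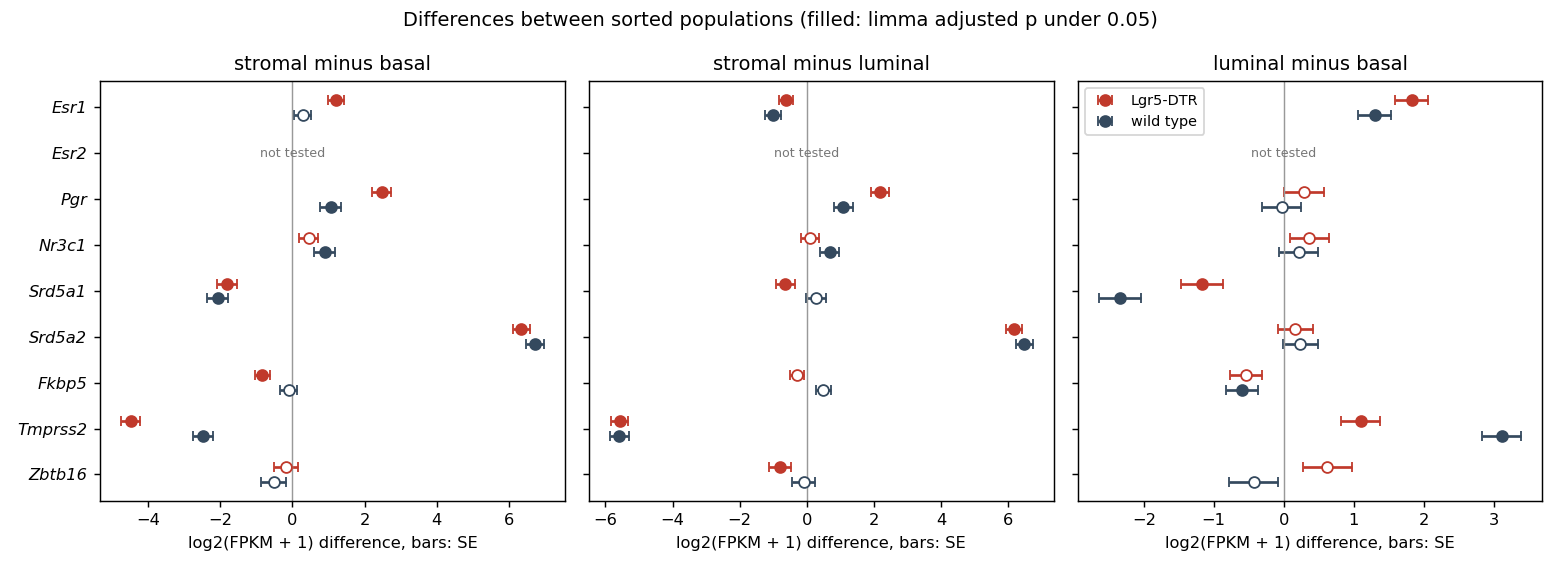
Log2 difference of each tested member between populations, on the log2(FPKM + 1) scale, separately for Lgr5-DTR and wild type mice, with bars for the SE and filled points where the adjusted p was under 0.05. Srd5a2 lies near 6 above both epithelia in stroma, and Tmprss2 about as far below luminal cells.

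Tests of whether a genotype difference changed between populations gave 2 calls of 8 members for stroma against basal cells (Tmprss2 and Pgr, 4.26% of all genes) and 1 for luminal against basal cells (Tmprss2, 4.45%). For stroma against luminal cells limma gave 0, with 3 members at an unadjusted p under 0.05, beside 4.78% of all genes, and 0 also without trended and robust variances.

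The rest of the steroid pathway was followed through lists of chaperones, coregulators, metabolizing enzymes and target genes that did not include the members. In stroma, limma called none of 11 chaperones, 14 coregulators, 20 androgen targets and 17 glucocorticoid targets tested, with 1, 0, 3 and 1 at an unadjusted p under 0.05. Over all genes tested in stroma it called 1.17%. Of 16 steroid enzymes 1 fell, the estrogen sulfotransferase Sult1e1, which inactivates estrogen by sulfation. It averaged 29.0 ± 10.1 FPKM in Lgr5-DTR and 91.1 ± 27.9 FPKM in wild type stroma, a difference of -1.65 ± 0.33 (adjusted p = 0.0410). This call was lost in 12 of 18 alternatives and in 6 of the 7 that left out 1 library, all but Lgr5-DTR library 4 (adjusted p at most 0.192). Of 12 estrogen and progesterone targets 1 fell, the chemokine gene Cxcl12, at 76.9 ± 5.01 FPKM in Lgr5-DTR and 384 ± 181 FPKM in wild type stroma (-2.21 ± 0.27, adjusted p = 0.00243), and this held under all 18 alternatives.

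In basal cells many glucocorticoid targets moved. Of 17 tested, 3 rose and 7 fell, beside 6.5% and 4.46% of all genes, with a list median of -0.46 against 0.02 over all genes. Pdk4, a kinase that restrains pyruvate oxidation, averaged 4.29 ± 1.14 FPKM in Lgr5-DTR and 20.1 ± 3.43 FPKM in wild type basal libraries (-2.01 ± 0.20, adjusted p = 0.00142). Ddit4, an inhibitor of mTORC1, averaged 26.8 ± 6.37 FPKM in Lgr5-DTR and 74.1 ± 14.1 FPKM in wild type libraries (-1.44 ± 0.21, adjusted p = 0.00434). Gadd45b, a stress-induced gene, moved the other way, at 196 ± 37.6 FPKM in Lgr5-DTR and 68.2 ± 11.9 FPKM in wild type libraries (1.51 ± 0.19, adjusted p = 0.00300). These 3 calls held under all 17 alternatives. Leaving out single libraries gave 2 or 3 genes higher and 4 to 9 lower. The fewest fell without Lgr5-DTR basal library 2 and without wild type basal library 3, 4 each, and the basal Zbtb16 call was lost in both. Nr3c1 itself did not pass in basal cells, as given above. Markers of other cells also differed in these libraries. Summed over 10 smooth muscle markers, basal libraries held 262 to 336 FPKM in Lgr5-DTR and 438 to 498 FPKM in wild type mice, and 3 of 6 tested fell (1 to 4 without single libraries, with 1 without Lgr5-DTR library 2 and 2 without Lgr5-DTR library 3 or wild type libraries 2 or 3). The mean log2(FPKM + 1) of these markers was only 1.69 to 1.94 in Lgr5-DTR and 2.26 to 2.43 in wild type basal libraries. The sum was therefore spread unevenly over them. Acta2 was at most 2.27 FPKM in Lgr5-DTR and 5.17 FPKM in wild type basal libraries. Summed over 12 fibroblast markers, basal libraries held 573 to 1080 FPKM in Lgr5-DTR and 990 to 1224 FPKM in wild type mice. These ranges overlapped, and 2 of 4 fibroblast markers tested in basal libraries fell. Summed over 12 macrophage markers they held 23.4 to 32.9 FPKM in Lgr5-DTR and 17.0 to 26.8 FPKM in wild type mice, and 3 of 6 tested rose (0 without Lgr5-DTR library 2 or wild type libraries 2 or 3, 1 without Lgr5-DTR libraries 1 or 3). Summed over 10 endothelial markers they held 16.2 to 37.4 FPKM in Lgr5-DTR and 9.44 to 15.2 FPKM in wild type mice, and limma called 0 of 6 tested, with 3 at an unadjusted p under 0.05 (1 rose without Lgr5-DTR library 1). The part of these markers in the glucocorticoid target values was not tested.

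Other basal changes were single genes, beside 11% of all genes called in basal cells (6.5% higher and 4.46% lower). Of 14 coregulators 1 fell, Nrip1, a corepressor of nuclear receptors, at 55.4 ± 13.3 FPKM in Lgr5-DTR and 123 ± 21.9 FPKM in wild type libraries (-1.15 ± 0.21, adjusted p = 0.0120), a call lost without Lgr5-DTR basal library 2 and without wild type libraries 2 or 3. Of 11 chaperones 1 rose, the ubiquitin ligase Stub1 (0.61 ± 0.14, adjusted p = 0.0245, lost without Lgr5-DTR libraries 2 or 3 and wild type libraries 2 or 3). Of 10 enzymes 1 fell, Hsd17b7, which converts estrone to estradiol and also acts in cholesterol synthesis (-1.47 ± 0.24, adjusted p = 0.00750). Of 20 androgen targets 1 rose, the transporter gene Abcc4 (1.70 ± 0.29, adjusted p = 0.00830), and 2 fell, Ptger4 (-1.06 ± 0.17, adjusted p = 0.00766) and Pmp22 (-1.07 ± 0.21, adjusted p = 0.0146, lost without Lgr5-DTR libraries 2 or 3 or wild type library 2). Abcc4 rose with Tmprss2, at 5.39 ± 2.46 FPKM in Lgr5-DTR and 0.866 ± 0.142 FPKM in wild type libraries. Of 8 estrogen and progesterone targets, Igfbp4 rose (1.07 ± 0.17, adjusted p = 0.00731) and Cxcl12 and Xbp1 fell (-1.52 ± 0.36 and -0.57 ± 0.15, adjusted p = 0.0315 and 0.0401). Cxcl12 and Xbp1 were each lost without any 1 basal library other than Lgr5-DTR library 1.

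In luminal cells 2 of 23 androgen targets rose and 3 fell, with a list median of -0.36 against 0.10 over all genes. Of all 10524 genes tested there, 276 rose and 54 fell (3.14% in either direction). Pbsn, the androgen-dependent secretory protein probasin, averaged 8849 ± 1175 FPKM in Lgr5-DTR and 19612 ± 2617 FPKM in wild type luminal libraries (-1.15 ± 0.23, adjusted p = 0.0307). Azgp1, a secreted glycoprotein, averaged 128 ± 41.6 FPKM in Lgr5-DTR and 331 ± 70.6 FPKM in wild type libraries (-1.39 ± 0.26, adjusted p = 0.0252). Ndrg1, which hypoxia also induces, was higher, at 37.8 ± 13.7 FPKM in Lgr5-DTR and 13.8 ± 3.79 FPKM in wild type libraries (1.37 ± 0.28, adjusted p = 0.0353). The groups of Tmprss2 lay in the same order as those of Pbsn and Azgp1. With quantile normalization 0 targets were higher and 2 lower (11 at an unadjusted p under 0.05), and with upper quartile scaling 1 was higher and 3 lower, Pbsn not passing under the first. The androgen targets called were 0 higher and 2 lower without Lgr5-DTR luminal library 1, 1 and 0 without Lgr5-DTR library 2, 3 and 5 without Lgr5-DTR library 3, and 1 and 2 without wild type library 1. Azgp1 and Pbsn were lost without Lgr5-DTR library 2, and Ndrg1 without Lgr5-DTR library 1. Without wild type luminal library 3 limma called 0 of all 10360 genes tested, with 1818 at an unadjusted p under 0.05, and 0 of 23 androgen targets, with 10. Without wild type library 2 it also called 0 of 23, with 7. Summed over 12 fibroblast markers, luminal libraries held 241 to 416 FPKM in Lgr5-DTR and 211 to 266 FPKM in wild type mice, and 4 of 7 tested rose (0 without wild type libraries 2 or 3, 1 without Lgr5-DTR library 1 and 2 without wild type library 1). Summed over 12 macrophage markers they held 36.1 to 160 FPKM in Lgr5-DTR and 24.5 to 30.6 FPKM in wild type mice, and 1 of 9 tested rose (6 without Lgr5-DTR library 2, and 0 without any other 1 luminal library). Summed over 10 Schwann cell markers, luminal libraries held 97.0 to 181 FPKM in Lgr5-DTR and 64.5 to 86.7 FPKM in wild type mice. Of 7 tested 1 rose, with 3 at an unadjusted p under 0.05 in limma. Erythrocyte markers summed to 83.2 to 288 FPKM in Lgr5-DTR and 121 to 667 FPKM in wild type luminal libraries, with 0 of 3 called. The part of these markers in the luminal values was not tested.

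Of 16 glucocorticoid targets tested in luminal cells 1 rose and 2 fell, beside 276 and 54 of all 10524 genes (3.14% in either direction). In limma 10 of the 16 had an unadjusted p under 0.05, and the list median was 0.45 against 0.10 over all genes. The metallothionein genes Mt1 and Mt2 fell (-1.16 ± 0.20 and -1.09 ± 0.18, adjusted p = 0.0191 and 0.0190), and Cebpd, a transcription factor gene, rose (0.86 ± 0.18, adjusted p = 0.0384). The calls of Mt1 and Mt2 were lost without Lgr5-DTR luminal library 2 and without wild type libraries 2 or 3, and that of Cebpd without any 1 luminal library other than Lgr5-DTR library 3. Limma called none of 11 chaperones, 14 coregulators, 11 enzymes and 10 estrogen and progesterone targets in luminal cells, with 1, 2, 3 and 2 at an unadjusted p under 0.05. Of the other steroid and estrogen-related receptors 2, 2 and 5 were tested in stroma, basal and luminal cells, and 0 passed with or without adjustment.

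Genes whose log2(FPKM + 1) followed a member most closely over the 19 libraries were read as a description, since the points share populations and libraries. Srd5a2 was followed by Snai1 and Ptgis, both at a Pearson r of 0.996 among 8728 genes compared. Tmprss2 was followed by Krtcap3 (0.981), Ehf (0.981) and Cd24a (0.980), all of them epithelial genes. Pgr was followed by Cemip (0.972), Ptger2 (0.969) and Pla2g2e (0.956), and Esr1 by Aldh7a1 (0.955), Trp53inp2 (0.940) and Ptov1 (0.939). Srd5a1 was followed by Trim62 (0.951) and Aldh1a7 (0.939). Nr3c1 was followed by Ppp1r15a (0.924), Fam117a (0.916) and Fos (0.913), of which Fos and Ppp1r15a are known to be induced by stress. Fkbp5 had the loosest company, with Flot2 (0.823), Txnip (0.789) and Eva1c (0.786).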

How the data were processed

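RNA of flow-sorted stromal, basal and luminal cells was converted to cDNA with SMART-Seq v4, made into Nextera XT libraries and sequenced on an Illumina HiSeq, per the labels' protocols. For each RefSeq transcript the authors deposited FPKM made with TopHat2 and Cufflinks against mm10, per the submitters' processing notes, whose versions are not given in the sources used here. Read coverage, a signal used only to give depth, and a status were also deposited, per the file headers. No counts were among the values.

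FPKM were summed per gene symbol. Genes needed 1 FPKM in at least 3 libraries, and genes with a failed or capped status were left out. The test was limma 3.58.1 (R 4.3.3, trend and robust) on log2(FPKM + 1), which understates changes of low genes. Each population was fitted alone for genotype, and 1 model of 6 groups over 12350 genes served populations and interactions. Calls were made at an adjusted p of 0.05. The tests were checked on simulated data. Tables were joined with Python 3.11.15 and pandas 2.3.3. Alternatives were pseudocounts, filters, scalings, variance settings, the highest transcript per gene, left-out libraries, blocks, and the status set, 7 libraries whose tables carry low-data entries. The members, lists and tests were chosen with earlier results of these data known. All members were described, and up to 3 genes per list and comparison were named by smallest p. Cell markers, Lgr5 and basal Pbsn, given as checks, were chosen after their values were seen. For each member that averaged 5 FPKM or more in some group, the 3 genes with the highest correlation were named, except that some genes are not reported here. Promoter sequences came from RefSeq on GRCm38.p6, whose table held 7 of the 9 members.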

Additional observations from a re-analysis of the deposited data

Results flagged for a closer look

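In 3 results a member's genotype difference (Lgr5-DTR minus wild type) differed between populations by an interaction test in limma over 12350 genes. For Tmprss2, the luminal difference minus the basal one was -2.02 (SE 0.40, adjusted p = 0.00539), with all Lgr5-DTR basal libraries higher and all Lgr5-DTR luminal libraries lower than wild type. For Tmprss2, the stromal difference minus the basal one was -2.01 (SE 0.38, adjusted p = 0.00496). For Pgr, the stromal difference minus the basal one was 1.41 (SE 0.39, adjusted p = 0.0444). Pgr in basal libraries was at most 0.130 FPKM in either genotype, and Pgr passed the filter through stroma alone. In the Lgr5-DTR stromal group, the only one of 4 libraries, Dixon's criterion marked no library for any member.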

How the results depend on the processing

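No member result that passed was called in the opposite direction under an alternative. Some results that did not pass changed sign, such as the genotype difference of Tmprss2 in stroma minus that in luminal cells, in 6 of 23 alternatives. Of 34 member results that passed, 22 passed under every alternative, and of 57 that did not, 44 never did. Members called in stroma by genotype (0) became 1 in the 6-group fit. All genes called in stroma (125) became 36 without a filter, 75 with a filter of 5 FPKM, 77 with quantile normalization, 74 with upper quartile scaling, 49 with the status set and 320 in the 6-group fit. Members called in basal cells (2) became 1 with a pseudocount of 5, without a filter, with a filter of 5 FPKM and with upper quartile scaling. All genes called in basal cells (1069) became 492 without a filter. All genes called in luminal cells (330) became 4 without a filter, 217 with quantile normalization, 750 with the status set and 872 in the 6-group fit. In Lgr5-DTR cells, members called between stroma and luminal cells (6) became 3 with quantile normalization or upper quartile scaling, and between luminal and basal cells (3) became 5 when only those groups were fitted. Interactions called for stroma against basal cells (2) became 1 with a pseudocount of 0.1 or 5, without a filter, with a filter of 5 FPKM and with the status set. The interaction called for luminal against basal cells (1) became 0 with a pseudocount of 0.1.

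Leaving out each library gave 0 to 1 members and 31 to 232 genes in stroma, 1 to 4 members and 290 to 2231 genes in basal cells, and 0 to 1 members and 0 to 876 genes in luminal cells. The extremes were 31 without wild type stromal library 3, 232 without Lgr5-DTR stromal library 4, 290 without Lgr5-DTR basal library 2, 2231 without Lgr5-DTR basal library 1, 0 without wild type luminal library 3 (1818 at an unadjusted p under 0.05) and 876 without Lgr5-DTR luminal library 3. Between populations the members called ranged from 3 to 5 for stroma against luminal cells in Lgr5-DTR mice. Interactions ranged from 1 to 2 for stroma against basal cells, 0 to 1 for stroma against luminal cells and 1 to 2 for luminal against basal cells. The cause of these changes was not tested.

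Samples with the same number in the descriptions did not deviate together across genotypes (9 pairs, r -0.486 to 0.463), nor did every pair with the same number in the titles across populations (10 pairs, r -0.0165 to 0.355), so by the rule that every pair must exceed 0.1 the numbers were not taken to pair the samples. The title pairs did lean together, with a median r of 0.148 and 7 of 10 over 0.1, against a median of -0.0229 and 10 of 50 for other pairs, and a consensus correlation of 0.219. The replicate block by description number, which leaves out the unpaired Lgr5-DTR stromal library 4, gave 2 members (Pgr, 1.61, adjusted p = 0.000821, and Zbtb16, -0.89, adjusted p = 0.0338) and 1066 genes in stroma, 1 member and 213 genes in basal cells, and 755 genes in luminal cells. Under it 1 of 17 basal glucocorticoid targets rose and 2 fell. With title numbers as the block, luminal against basal interactions gave 2 members. FPKM hold no counts, so no counting interval can be given, and levels under 1 FPKM are not resolved by these tests.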
